A study of Mus musculus with 8 samples.

Results

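The clustered Zfp genes are the mouse zinc finger protein genes that lie beside one another in the genome. They were chosen by name and position alone: protein-coding genes of the GRCm38 RefSeq annotation whose symbol is Zfp followed by a digit, and whose span lies within 100 kb of another such gene on the same chromosome. This rule found 226 genes among 397 Zfp genes and 21887 protein-coding genes, and the other 171 Zfp genes are called isolated. Lactylation of lysine 12 of histone H4 (H4K12la), a histone mark made from lactate, had been mapped by CUT&Tag in mouse brain. In CUT&Tag an antibody tethers a transposase near the mark, and the DNA cut there is sequenced. The 8 libraries form 4 groups of 2: microglia of 5XFAD mice, microglia of wild-type (WT) mice, total brain cells of 5XFAD mice and total brain cells of WT mice. 5XFAD mice carry mutated human transgenes of familial Alzheimer disease driven by a mouse Thy1 promoter, which is active mainly in neurons, and are a model of amyloid deposition. All cells came from perfused brains from which the cerebellum had been taken away, and microglia, which are the brain's own macrophages, were pulled out of the dissociated cells with CD11b beads. No source used here gives the ages, sexes or background strain of the mice. The labels do not say whether replicates came from separate animals, so the p-values below measure only the spread between these samples, which may be technical.

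Most Zfp genes of this kind encode proteins with a row of zinc fingers that bind DNA, and many also carry a KRAB domain. The KRAB domain recruits TRIM28, which brings in the histone methyltransferase SETDB1 and other co-repressors, and many KRAB zinc finger proteins silence transposable elements in this way. The genes multiplied by tandem duplication, so that neighbours are often related in sequence and reads from near-identical copies may not be placed with certainty. H4K12la is, like acetylation of the same lysine, usually described at active promoters.

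The data are 1 list of peaks per library, with 22300 to 41783 peaks in microglia and 22543 to 32967 in total cells. Without read counts in the lists the depth is unknown, a longer list may come from more reads, and a gene without a peak is one for which none was listed. Among 12 microglial marker genes, 10 had a peak in all 4 microglia libraries and 1 in all 4 total cell libraries. Of 7 neuronal marker genes, 5 had no peak in any library and none had one in all 4 microglia libraries. Map2 had a peak in all 4 total cell libraries and no microglia library. Rbfox3 had one in 3 microglia libraries and no total cell library. Of 5 markers of other leukocytes 4 had no peak in any library, as did 2 of 5 astrocyte, 3 of 5 oligodendrocyte and 2 of 4 vascular markers. Other members of these lists did have peaks in all 4 microglia libraries: Slc1a3 and Aldh1l1 of the astrocyte list, Mbp of the oligodendrocyte list, with none in total cells, and Pecam1 of the vascular list. Mrc1 of the list of other leukocytes had a peak in 3 microglia libraries and no total cell library. The part of these list members in the results below was not tested. Most defining markers of neurons were therefore without a peak in the total cells too, and a peak in total cells cannot be assigned to a cell type. In such mixed samples fewer cells of a type and less mark per cell cannot be told apart.

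The promoters printed here are those of the genes at the extremes, and a pair of copies shows a limit of the lists. Zfp975 and Zfp738 had on average the highest-scoring peaks of the clustered genes present in all 8 libraries, with the next genes close behind. Zfp2 and Zfp239 were the clustered genes with peaks in every total cell library and no microglia library. Each sequence is the stretch of 250 bases before the listed transcription start, 5′ to 3′ on the gene's strand, from RefSeq GRCm38.p6, with CG dinucleotides in capitals.
Zfp975: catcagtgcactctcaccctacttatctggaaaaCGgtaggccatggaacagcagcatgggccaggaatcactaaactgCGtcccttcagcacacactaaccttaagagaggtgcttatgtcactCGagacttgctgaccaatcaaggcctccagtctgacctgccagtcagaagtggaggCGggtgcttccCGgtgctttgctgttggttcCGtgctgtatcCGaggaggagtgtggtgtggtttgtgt
Zfp738: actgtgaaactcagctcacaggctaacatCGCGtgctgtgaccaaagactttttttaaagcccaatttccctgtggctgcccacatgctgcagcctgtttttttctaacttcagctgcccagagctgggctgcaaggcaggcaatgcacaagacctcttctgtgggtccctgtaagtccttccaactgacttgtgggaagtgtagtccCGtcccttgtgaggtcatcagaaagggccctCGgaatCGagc
Zfp2: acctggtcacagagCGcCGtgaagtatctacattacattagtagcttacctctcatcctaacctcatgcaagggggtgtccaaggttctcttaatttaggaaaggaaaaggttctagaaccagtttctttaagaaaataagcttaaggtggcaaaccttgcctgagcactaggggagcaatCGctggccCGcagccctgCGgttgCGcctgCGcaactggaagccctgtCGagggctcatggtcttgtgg
Zfp239: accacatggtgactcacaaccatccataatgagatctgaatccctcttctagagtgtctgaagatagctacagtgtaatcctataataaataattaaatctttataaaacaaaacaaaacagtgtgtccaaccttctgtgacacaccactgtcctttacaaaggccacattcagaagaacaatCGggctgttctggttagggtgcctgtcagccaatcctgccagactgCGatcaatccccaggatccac
Zfp955a: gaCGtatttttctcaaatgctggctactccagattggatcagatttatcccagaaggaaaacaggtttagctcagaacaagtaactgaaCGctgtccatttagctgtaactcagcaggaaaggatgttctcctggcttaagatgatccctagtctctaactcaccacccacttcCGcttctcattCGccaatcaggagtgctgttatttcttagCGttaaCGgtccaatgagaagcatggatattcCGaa
Zfp955b: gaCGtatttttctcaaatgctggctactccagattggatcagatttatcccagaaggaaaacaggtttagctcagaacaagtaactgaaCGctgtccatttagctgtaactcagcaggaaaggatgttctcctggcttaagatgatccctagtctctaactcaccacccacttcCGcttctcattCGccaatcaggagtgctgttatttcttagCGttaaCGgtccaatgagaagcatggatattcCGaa
The Zfp975 stretch lies at chr7:42692719-42692968 on the minus strand and holds 7 CG dinucleotides. That of Zfp738 lies at chr13:67683513-67683762 on the minus strand and holds 5. The Zfp2 stretch, at chr11:50916177-50916426 on the minus strand, has 8, and the Zfp239 stretch, at chr6:117861774-117862023 on the plus strand, has 2. The promoters with the highest-scoring peaks thus did not stand out among these by their number of CG dinucleotides. Zfp955a, at chr17:33255146-33255395 on the minus strand, and Zfp955b, at chr17:33289294-33289543 on the plus strand, are shown because their stretches are identical at 250 of 250 positions. These genes lie 34352 bases apart, and neither had a peak in any library. No source used here says how reads that match both copies were treated.

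A gene was counted as marked when a peak overlapped by at least 1 base a window of 2 kb on either side of either annotated gene end, here called a gene-end peak. Clustered Zfp genes were marked more often than isolated Zfp genes, and both more often than coding genes in general, in each of the 8 libraries. Of the 226 clustered genes, 163 and 178 were marked in 5XFAD microglia, 147 and 169 in WT microglia, 175 and 159 in 5XFAD total cells, and 157 and 157 in WT total cells. The lowest count, in WT microglia 1, belongs to the shortest peak list, and the highest, in 5XFAD microglia 2, to the longest. As a share, the mean over the 8 libraries was 72.2% ± 4.58 for clustered genes, 63.2% ± 5.56 for isolated genes and 39.2% ± 5.49 for all coding genes (SD, n = 8). The difference between clustered and isolated genes ranged from 5.66 to 12.2 percentage points across libraries, with a mean of 9.02 ± 2.64 (SD, n = 8). It was 6.74 ± 1.36 points in microglia and 11.3 ± 0.696 points in total cells (SD, n = 4 each), and the 2 ranges did not overlap. The clustered genes themselves were marked to a like extent in both preparations, with 72.7% ± 5.77 in microglia and 71.7% ± 3.86 in total cells (SD, n = 4 each). Isolated genes reached 65.9% ± 5.74 in microglia and 60.4% ± 4.31 in total cells (SD, n = 4 each). All coding genes were likewise lower in total cells, with 41.7% ± 6.5 in microglia and 36.8% ± 3.5 in total cells (SD, n = 4 each). By genotype, clustered genes were marked at 75.4% ± 4.69 in 5XFAD microglia against 69.9% ± 6.88 in WT microglia, and at 73.9% ± 5.01 in 5XFAD total cells against 69.5% ± 0 in WT total cells (SD, n = 2 each). The 5XFAD and WT values overlapped in microglia. In total cells both 5XFAD libraries lay above both WT libraries, by 2 genes at the nearest (159 and 157 marked). These shares are descriptions with no test, since the genes were proposed with earlier results of these data known.

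**Figure D1:**
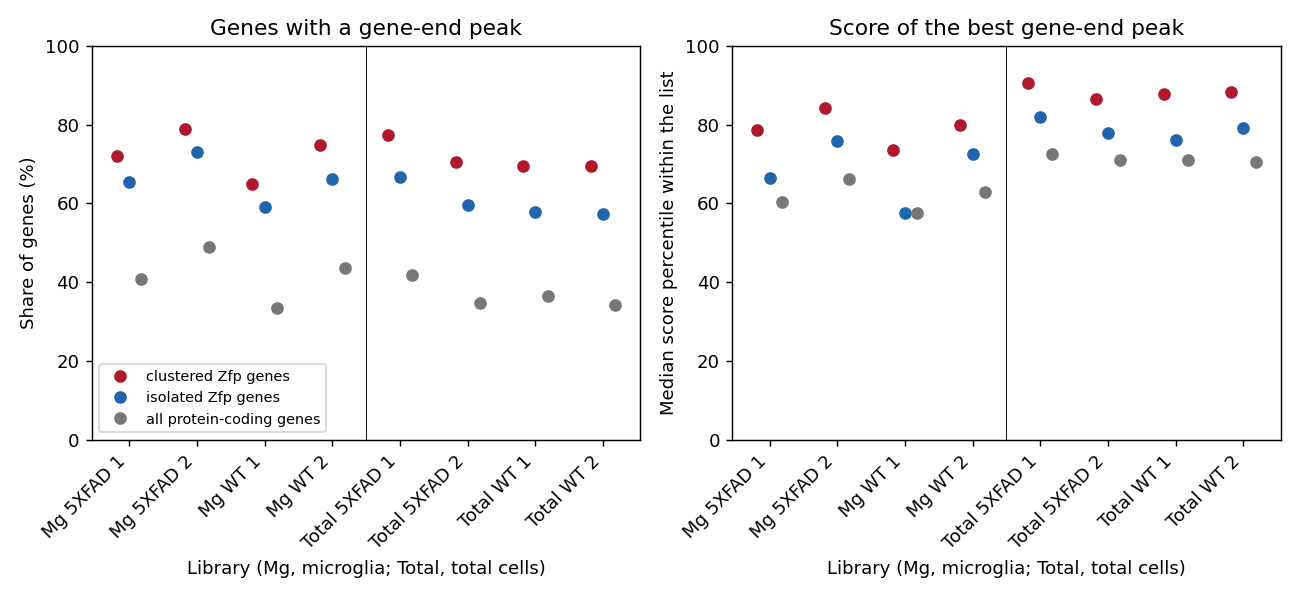
Share of genes with a gene-end peak (left, percent) and median percentile of the best gene-end peak's score within its own list (right) in each of the 8 libraries, for clustered Zfp genes (n = 226), isolated Zfp genes (n = 171) and all coding genes (n = 21887), each point being 1 library. In the left panel the clustered genes are highest in every library; in the right panel they are also highest, and isolated and all coding genes are both at 57.5 in WT microglia 1.

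The marked genes also carried strong peaks. Each peak has a whole-number score of unstated unit, which is the authors' own value, and it was ranked as a percentile of its own list, 100 being the highest-scoring peak. The median percentile of the best gene-end peak of marked clustered genes was 78.6 and 84.3 in 5XFAD microglia, 73.6 and 79.8 in WT microglia, 90.5 and 86.4 in 5XFAD total cells, and 87.8 and 88.2 in WT total cells. For marked isolated genes the median lay between 57.5 and 75.9 in microglia and between 76.1 and 81.9 in total cells. Over all marked coding genes the median lay between 57.5 and 66.2 in microglia and between 70.6 and 72.6 in total cells. The peaks were wider too: the median width of the best peak at clustered genes was 709 to 1181 bases in microglia and 522 to 691 bases in total cells. It was 676 to 1025 and 424 to 561 bases at isolated genes, and 619 to 925 and 358 to 488 bases over all coding genes.

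Many clustered genes were marked in every sample. A gene-end peak in all 8 libraries was found at 118 of the 226 (52.2%), against 58 of 171 isolated genes (33.9%) and 17.7% of all coding genes. At the other end, 37 clustered genes (16.4%) had none in any library, against 33 isolated genes (19.3%) and 41.1% of all coding genes. The other clustered genes had a peak in 1 to 7 libraries, 19 of them in 7 and 18 in 6. For the 195 clustered genes with a listed start and strand, a peak within 2 kb of a listed start was found in all 8 libraries for 109 (55.9%). This held for 34.6% of such isolated genes and 17% of all such genes. No library had one for 22 clustered genes (11.3%), against 16.9% of isolated genes and 43.4% of all.

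The clustered genes in all 8 libraries with the highest mean score percentiles were Zfp975, Zfp738, Zfp983, Zfp935, Zfp74, Zfp869, Zfp53, Zfp882, Zfp963 and Zfp619. Zfp975 (chr7:42660105-42692810) had percentiles of 99.2 and 99.4 in 5XFAD microglia, 98.7 and 99.7 in WT microglia, 99.9 and 99.8 in 5XFAD total cells, and 99.8 and 99.7 in WT total cells. Its mean of 99.5 ± 0.405 (SD, n = 8) ranked 8 among the 3871 coding genes marked in all 8 libraries. Zfp738 (chr13:67667441-67683512) followed with 99.1 ± 1.03 and rank 18, and its lowest value was 97.2, in WT microglia 1. The other 8 had means between 98.0 and 98.9 with SDs of 0.87 to 2.23. The order of the named genes, Zfp738 included, is thus not resolved. Across all 118 the median of the mean percentile was 87, against 82.9 for the isolated genes and 77.1 for all coding genes marked in all 8 libraries. Mean percentiles of the 118 ran from 38.7 to 99.5, so presence in every library did not go with a high score at every gene.

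A few members have a role known from mouse genetics, and they were picked for that role after their values had been seen. Zfp809, which silences murine leukaemia virus through the primer binding site of the virus, was marked in all 8 libraries with a mean percentile of 93.3 ± 3.82. Zfp568, which represses a placental transcript of Igf2, was marked in all 8 with 88.2 ± 9.77, and Zfp445, which helps to keep genomic imprints, in all 8 with 93 ± 5.55 (SD, n = 8 each). Zfp110, a partner of the p75 neurotrophin receptor, had 95.4 ± 6.96 in all 8. Zfp932, which represses endogenous retroviruses, was marked in 7 libraries and lacked a peak in 5XFAD total cells 2. Its percentiles spread widely, from 19.8 in WT microglia 2 to 98.3 in WT total cells 1. Zfp746, the parkin substrate also called PARIS, was likewise marked in 7 libraries, without a peak in WT microglia 2.

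The mark sat at the starts of the clustered genes. A peak within 2 kb of the gene end that is the start by the listed strand was present at 71.7% ± 4.62 of clustered genes with a listed strand, against 61.8% ± 5.06 of isolated genes and 35.6% ± 5.14 of all genes (SD, n = 8). At the far end the order was the opposite: 6.6% ± 1.41 of clustered genes, 10.3% ± 3.22 of isolated genes and 11.2% ± 3.26 of all genes (SD, n = 8). Averaged over libraries, coverage of clustered genes by peaks was highest at 65.8%, 100 bases downstream of the start, in microglia, and at 64.7%, at the start itself, in total cells, where the start is the listed one nearest the gene end. The peak values for isolated genes were 40.5% in microglia and 41.5% in total cells, and for all genes 22.4% in microglia and 20.7% in total cells. The centre of the nearest peak within 2 kb lay at a median of 72 to 139 bases downstream of it in microglia and 51 to 84 bases in total cells.

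**Figure D2:**
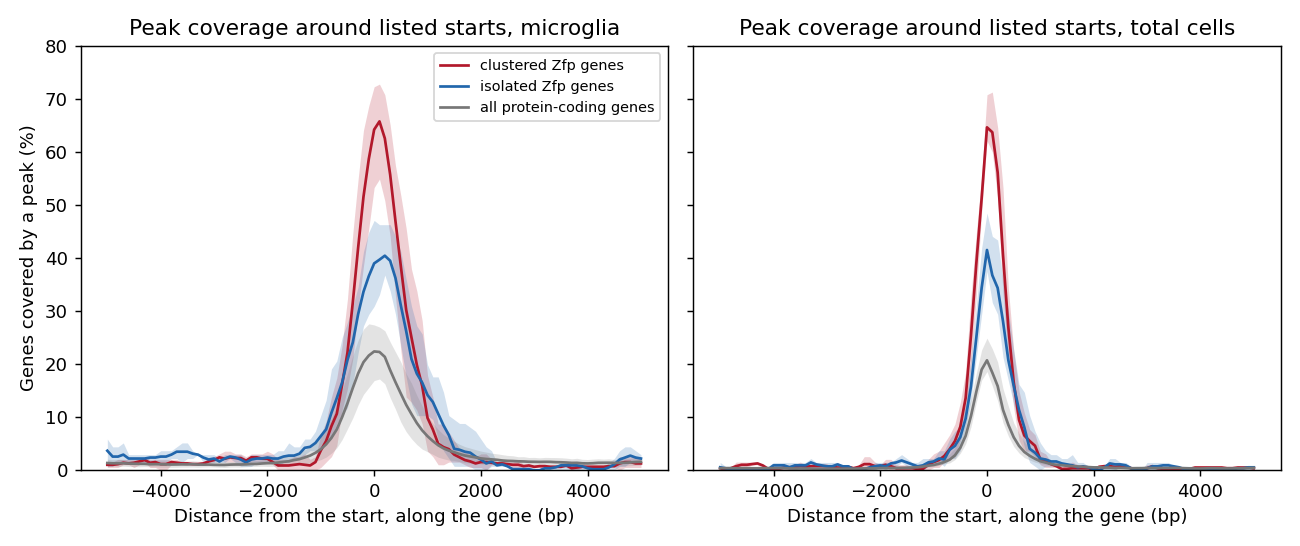
Share of genes covered by a peak (percent) by distance from the listed start (bp, positive downstream), for microglia (left) and total cells (right), for clustered Zfp genes, isolated Zfp genes and all genes with a listed strand. Lines are means and shaded bands the lowest to highest of the 4 libraries. The clustered genes reach 65.8% in microglia and 64.7% in total cells beside the start, and all 3 sets fall off on both sides.

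The 226 genes fall into 52 runs on 14 chromosomes, here called clusters, in which each gene lies within 100 kb of the next. Of these, 22 are pairs, and the longest has 23 genes. In 10 clusters, with 30 genes in all, every gene was marked in all 8 libraries, and in 5 clusters, with 11 genes in all, no gene was marked in any. The share of gene and library combinations with a peak was 100% on chromosome 16, 98.6% on chromosome 8, 89.6% on chromosome 9, 77.8% on chromosome 13 and 77.6% on chromosome 7, which holds 76 members in 14 clusters. It was 44.3% on chromosome 2 and 7.14% on chromosome 4.

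The cluster with most members spans 788.4 kb of chromosome 13 (chr13:67038594-67827000) and holds 23 genes. Each gene there behaved in an all-or-none way, with 18 marked in all 8 libraries and 5 in none: Zfp708, Zfp759, Zfp458, Zfp595 and Zfp459. Between 26 and 29 peaks were listed within the span in every library. Of the 5 genes with no gene-end peak, 4 had a peak at a listed start that lies inside the annotated gene, in all 8 libraries: 16.4 kb from the outer end in Zfp708, a repressor of a family of retrotransposons in mouse, 6.57 kb in Zfp759, 9.5 kb in Zfp458 and 10.4 kb in Zfp595. Zfp459 had a peak at its listed start in 7 libraries. Unmarked by the gene-end rule thus did not mean without a start peak at these genes.

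The next clusters in size were on chromosomes 7 and 17. At chr7:29768552-30169775, which includes Zfp568, 11 of 15 genes were marked in all 8 libraries, and Zfp790, the 1 gene with no gene-end peak, had a peak in all 8 at a listed start 4.63 kb inside. At chr17:21383707-21994366, 9 of 13 genes were marked in all 8 libraries, and the unmarked Zfp229 had such a peak 2.77 kb inside. Members of the chromosome 17 cluster with a gene-end peak numbered 11 and 12 in 5XFAD microglia, 9 and 11 in WT microglia, 12 and 12 in 5XFAD total cells, and 10 and 10 in WT total cells.

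**Figure D3:**
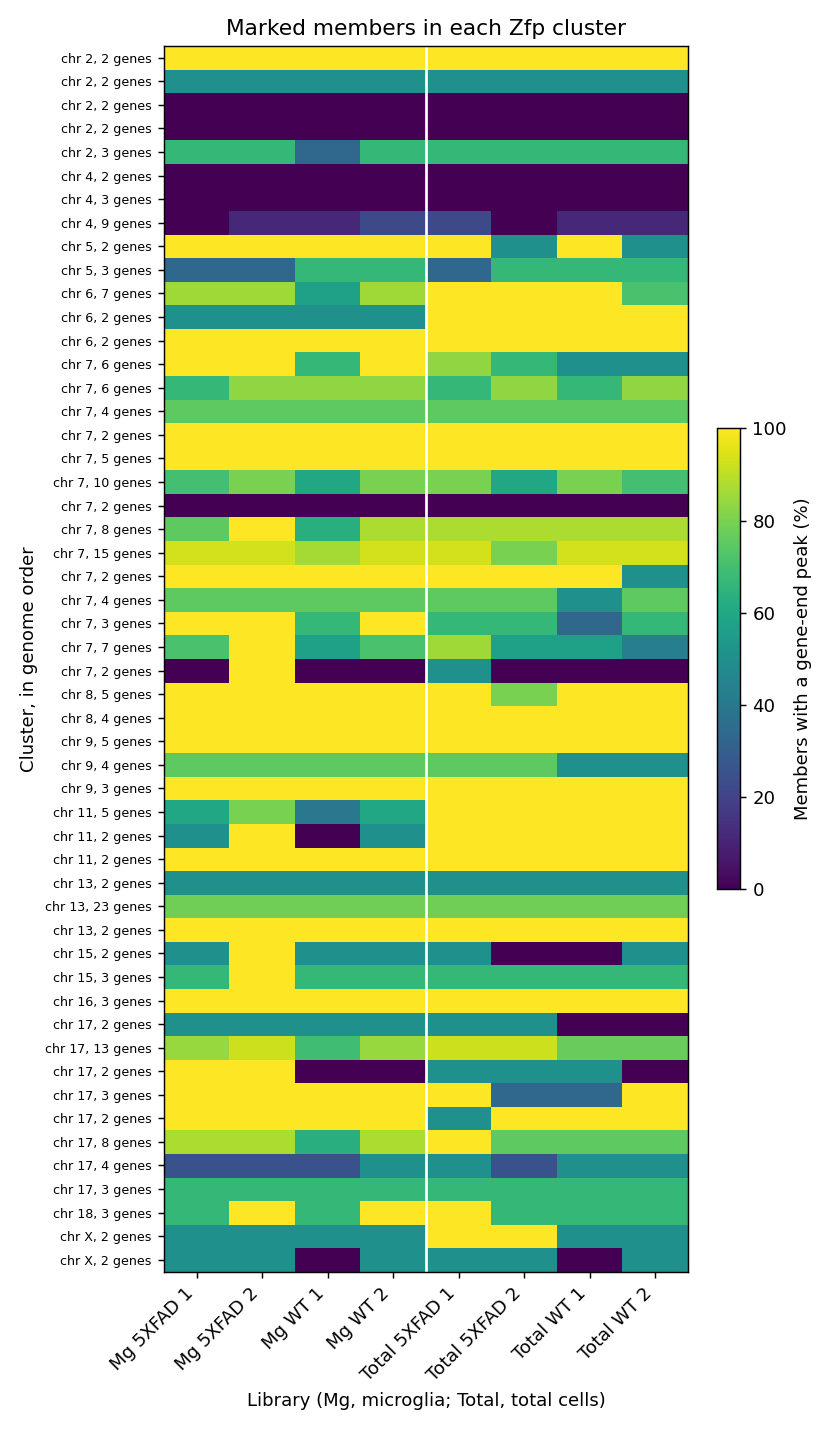
Share of members with a gene-end peak (percent, colour scale) in each of the 52 clusters (rows, in genome order, labelled by chromosome and number of genes) and each of the 8 libraries (columns). The chromosome 13 cluster of 23 genes has the same colour in every library, and the 3 chromosome 4 clusters are dark in all.

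The 3 clusters of chromosome 4 stand at the other extreme. Of their 14 genes, 11 were without a gene-end peak throughout and none was marked in all 8. Zfp982 had peaks in 5XFAD total cells 1 and in both WT total cell libraries, at percentiles of 46.4, 98 and 93.8. Zfp933 was marked in 5XFAD microglia 2 and in both WT microglia libraries, at low percentiles of 35, 3.78 and 0.0328, and Zfp984 in WT microglia 2 and 5XFAD total cells 1. Peaks of any kind were also few: over the 724.2 kb of the largest of the 3 clusters, 1 and 3 peaks were listed in 5XFAD microglia, 1 and 3 in WT microglia, 5 and 1 in 5XFAD total cells, and 3 and 3 in WT total cells. Without the chromosome 4 clusters the share of marked clustered genes was 76.5%, and its difference from isolated genes 13.3 points. This comparison is one-sided, since the clusters were left out after their values were seen and every isolated gene was kept. Zfp990 and Zfp980, isolated genes of chromosome 4 without a peak in any library, were among those kept.

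The 37 clustered genes without a gene-end peak differed among themselves: 14 had a peak elsewhere in the gene body in at least 1 library, 8 of them in all 8 libraries, and 23 had none anywhere in the body. Of 33 unmarked isolated genes, 9 had a body peak in at least 1 library and 3 in all 8. Of 9005 unmarked coding genes in general, 1563 had one in at least 1 library and 286 in all 8. Repeated promoter sequence was more frequent among the unmarked genes. In a promoter window of 300 bases, 250 before and 50 after the start, a promoter was called repetitive when over 20% of its 40-base runs also occur in the listed promoter of another gene. That held for 11 of 32 unmarked clustered genes (34.4%), 6 of 60 marked in 1 to 7 libraries (10%) and 6 of 103 marked in all 8 (5.83%). All 11 repetitive unmarked promoters belonged to genes with no peak in the body either, where they made up 11 of 21 (52.4%). The same order was found among isolated genes, with 8 of 25 unmarked (32%), and among all coding genes, with 17.3% of the unmarked against 1.29% of those marked in all 8. The part of read placement in this was not tested.

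Neighbouring genes were alike in some pairs and not in others. Among 174 pairs of adjacent clustered genes, both were marked in all 8 libraries in 65 pairs, both were unmarked in 12, and 1 was marked in all 8 beside an unmarked one in 19. In the other 78 pairs at least 1 gene was marked in some libraries only. For comparison, 52.2% of the clustered genes were marked in all 8 libraries and 16.4% in none, and whether neighbours resembled each other beyond these shares was not tested. Some neighbours on opposite strands share a window. The annotated spans of Zfp942 and Zfp943 lie 55 bases apart, and both genes had the same 5 libraries. The spans of Zfp784 and Zfp580 lie 72 bases apart, and both genes had all 8. Those of Zfp944 and Zfp758 lie 1 base apart, and both genes had 6. Windows overlapped that of another coding gene at 34.1% of clustered genes, 34.5% of isolated genes and 42.4% of all genes. The 47 other coding genes inside the cluster spans were marked in all 8 libraries in 12 cases (25.5%) and unmarked in 16 (34%). Of the peaks within the cluster spans, 68.3% to 72.3% per library lay at the ends of members.

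Clustered promoters held fewer CG dinucleotides than other Zfp promoters. In the 300-base window the median was 11 in clustered genes, 17 in isolated genes and 13 in all coding genes. Among coding genes in general, promoters marked in all 8 libraries had a median of 20 and unmarked ones of 3. Among clustered genes the medians were 11 for genes marked in all 8 libraries, 15 for those marked in 1 to 7 and 8 for the unmarked. Within bands of CG number, clustered genes were marked in all 8 libraries more often than isolated genes and than all coding genes. With 0 to 4 the share was 33.3% of 18 clustered genes, 10% of 10 isolated genes and 3.61% of all coding genes. With 5 to 9 it was 57.9% of 57 clustered, 37.9% of 29 isolated and 13.4% of all genes. With 10 to 14 it was 58% of 50 clustered, 30.8% of 13 isolated and 23.8% of all genes. Above 4 and below 20, this share of clustered genes thus differed little between bands. With 15 to 19 it was 58.1% of 31 clustered, 41.4% of 29 isolated and 27.8% of all genes. With 20 or more it was 43.6% of 39 clustered, 34.5% of 55 isolated and 27% of all genes. The mean share marked per library was also higher in clustered than isolated genes in every band, but nearly equal with 15 to 19. It was 73.8% of clustered and 72.8% of isolated genes there. For microglia alone the order in that band was reversed, at 71% and 78.4%, against 76.6% and 67.2% in total cells. Clustered genes reached their highest mean share per library, 79.5%, with 20 or more, against 71.6% of isolated genes.

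**Figure D4:**
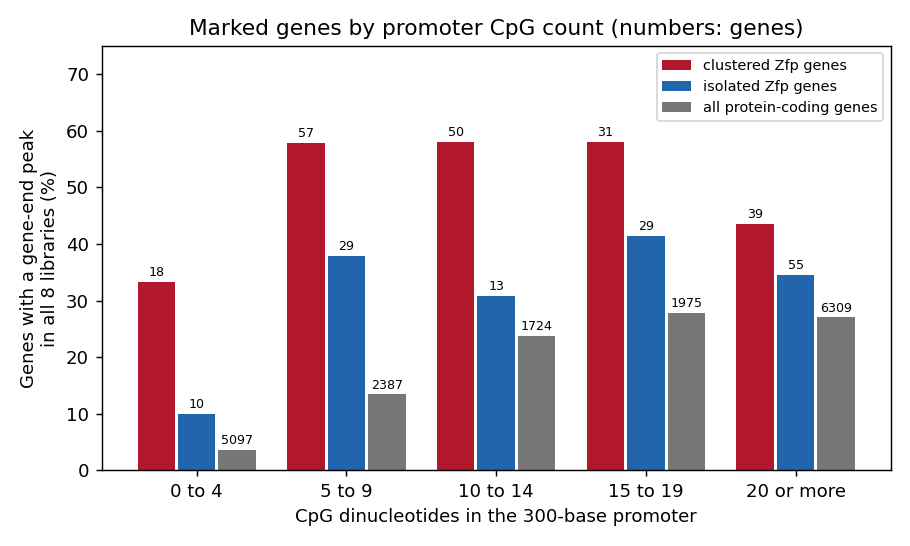
Share of genes with a gene-end peak in all 8 libraries (percent) by number of CG dinucleotides in the 300-base promoter window, for clustered Zfp genes, isolated Zfp genes and all coding genes with a listed promoter, with the number of genes above each bar. Clustered genes lie above the other sets in every band, between 33.3% and 58.1%.

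The promoters were searched on both strands for 5 short motifs, none of which contains another. CCGGAAG, the core bound by ETS factors, occurred in 41 of 195 clustered promoters (21%), 32 of 136 isolated promoters (23.5%) and 11.9% of all listed promoters. It was found in 22.3% of clustered promoters marked in all 8 libraries and in 21.9% of unmarked ones. AAGATGGC, the YY1 motif, occurred in 3.59% of clustered, 7.35% of isolated and 3.21% of all promoters. TGACGTCA, the cyclic AMP response element, occurred in 4.1% of clustered, 2.21% of isolated and 2.33% of all promoters. GCATGCGC, part of the NRF1 motif, occurred in 6.15% of clustered, 3.68% of isolated and 3.61% of all promoters. TATAAA, the TATA box, occurred in 5.13% of clustered, 8.09% of isolated and 13.3% of all promoters. A match is a stretch of letters and not a shown binding site.

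Few clustered genes differed between microglia and total cells. No clustered gene had a peak in all 4 microglia libraries and no total cell library, against 1 isolated gene (0.585%) and 1.5% of all coding genes. The reverse pattern was found at Zfp2 and Zfp239 (0.885% of clustered genes), against 0.649% of all coding genes. Zfp2 (chr11:50897265-50916216) had percentiles of 78.7 and 55.4 in 5XFAD total cells and 71 and 45.6 in WT total cells, and no peak in any microglia library. Zfp239 (chr6:117862024-117872766) had 74.8 and 63.2 in 5XFAD total cells and 64.1 and 70.6 in WT total cells, and likewise none in microglia. In an exact two-sided permutation test of each gene over the 70 arrangements of the libraries, both reached 0.0286, the smallest p that 4 against 4 libraries allow. After Benjamini-Hochberg adjustment over 21887 genes the smallest adjusted p was 1 and no gene passed, whereas 471 genes, these 2 among the clustered ones, had an unadjusted p below 0.05. Genes in microglia only numbered 3 without 5XFAD total cells 1, and 1 without 5XFAD microglia 1, WT microglia 1 or WT total cells 2. Genes in total cells only numbered 5 without 5XFAD microglia 2 and 4 without 5XFAD total cells 2.

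A looser count named more members in both directions. At least 3 more microglia than total cell libraries had a peak at 6 clustered genes (2.65%), against 9 isolated genes (5.26%) and 5.3% of all coding genes. They were Zfp579, Zfp689, Zfp707, Zfp865, Zfp871 and Zfp933. At least 3 more total cell than microglia libraries had one at 8 clustered genes (3.54%), against 1 isolated gene (0.585%) and 2.13% of all coding genes. They were Zfp2, Zfp114, Zfp239, Zfp454, Zfp607b, Zfp811, Zfp820 and Zfp982. Zfp454 lies beside Zfp2 in a cluster of 5 genes on chromosome 11 in which 60% of gene and library combinations had a peak in microglia and 100% in total cells. The opposite held in a cluster of 6 genes near 4.9 Mb of chromosome 7, which includes Zfp579 and Zfp865, with 91.7% in microglia and 62.5% in total cells. Each of these shares rests on 4 libraries per preparation and was not tested.

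Few clustered genes were marked in 1 genotype only, with shares below those of all coding genes in 2 of the 4 sets and above them in the other 2. In microglia, 3 clustered genes (1.33%) had peaks in both 5XFAD libraries and neither WT library, against 4.68% of isolated and 3.19% of all coding genes: Zfp692, Zfp947 and Zfp994. The reverse was found at Zfp12 and Zfp956 (0.885%), against 0.58% of all coding genes. In total cells, 10 clustered genes (4.42%) had peaks in both 5XFAD libraries and neither WT library, against 2.34% of isolated and 3.11% of all coding genes: Zfp109, Zfp300, Zfp524, Zfp599, Zfp688, Zfp771, Zfp942, Zfp943, Zfp947 and Zfp960. The reverse was found at Zfp235 and Zfp553 (0.885%), against 1.64% of all coding genes. In the 5XFAD total cell set, Zfp109 had a peak at its listed start in 7 of the 8 libraries. Its place in the set thus rests on the gene-end rule. Zfp942 and Zfp943 had the same best peaks in total cells and are not separate observations. Their promoters are also repetitive, with 75.1% and 82.8% of 40-base runs shared with other listed promoters. With 2 against 2 libraries the exact permutation test cannot go below 0.333, so no gene could pass a test between genotypes. The sets also turned on single libraries. The 5XFAD microglia set held 21 genes without WT microglia 2 and 12 without 5XFAD microglia 1, and the WT microglia set 5 without 5XFAD microglia 2 and 4 without WT microglia 1. The 5XFAD total cell set held 16 genes without 5XFAD total cells 2, and the WT total cell set 10 without 5XFAD total cells 1 and 4 without either 5XFAD total cells 2 or WT total cells 1.

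Values of the genes in these sets varied. Zfp947 was the one gene in both 5XFAD sets, with percentiles of 28 and 88.9 in 5XFAD microglia, none in WT microglia, 55.7 and 64.6 in 5XFAD total cells and none in WT total cells. Zfp960 had high percentiles in 6 libraries, 93.6 and 91.9 in 5XFAD microglia, 88.4 and 79.5 in WT microglia, then 82.4 and 76.7 in 5XFAD total cells, and no peak in either WT total cell library. Zfp300, on chromosome X, had its only peaks in 5XFAD total cells, at low percentiles of 4.96 and 18.3, and none among the higher-scoring 50% of peaks. Zfp692 had 29.3 and 27.5 in 5XFAD microglia, none in WT microglia, 67 and 39.2 in 5XFAD total cells, and 54.3 and 7.13 in WT total cells. With a 5 kb window it was marked in all 8 libraries. Zfp994 had 42.5 and 85.1 in 5XFAD microglia, none in WT microglia or 5XFAD total cells, and 7.53 in WT total cells 1. Zfp12 had no peak in 5XFAD microglia and had 80.6 and 79.5 in WT microglia, with peaks in all 4 total cell libraries between 66.1 and 93.1, and Zfp956 shared its pattern with 5.78 and 40.8 in WT microglia and 69.3 to 94.7 in total cells. Zfp553 had 10.6 in 5XFAD microglia 2, none in WT microglia or 5XFAD total cells, and 37.8 and 53.3 in WT total cells. Zfp235 had 18.1 and 36.3 in 5XFAD microglia, 28 and 52.3 in WT microglia, none in 5XFAD total cells, and 81.6 and 73.4 in WT total cells.

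The genes of the co-repressor machinery that KRAB zinc finger proteins use were marked in all 8 libraries less often than the clustered genes and more often than coding genes in general. Of 25 listed genes, 7 (28%) were marked in all 8 libraries, against 17.7% of all coding genes: Cbx3, which encodes a heterochromatin protein, the deacetylase genes Hdac1 and Hdac2, the chromatin remodeller gene Smarcad1, the histone chaperone gene Daxx, and Mphosph8 and Pphln1, which encode subunits of the HUSH silencing complex. Tasor, which encodes the third HUSH subunit, and Dnmt1, the maintenance DNA methyltransferase gene, were unmarked in all 8 libraries (8%, against 41.1% of all coding genes), and the other 16 had peaks in some. All 4 microglia libraries marked 11 of the 25 genes (44%, against 29.4% of all coding genes), and all 4 total cell libraries marked 9 (36%, against 22.8%). Hdac2 had a mean percentile of 98 ± 2.33 (SD, n = 8). Trim28 had a peak in 1 microglia library and 3 total cell libraries, and Setdb1 in 2 microglia libraries and no total cell library.

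On both sides of the 100 kb limit there were genes with and without the mark. Just inside it were Zfp263, 96399 bases from its nearest Zfp gene and marked in 8 libraries, Zfp972, at 97633 bases and marked in none, and Zfp605 and Zfp932, 97761 bases apart and marked in 7 each. Just outside were Zfp715 and Zfp936, 104412 bases apart and marked in 8 and 0 libraries, Zfp653, at 116770 bases and marked in 5, and Zfp781, at 117571 bases and marked in 0.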

How the data were processed

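H4K12la CUT&Tag was carried out on 8 mouse brain libraries, grouped by their titles. The submitters' processing notes name fastp 0.19.6, Bowtie2, deepTools and the GRCm38 (mm10) build. The peak caller and its settings are not named in the sources used here. Each library has its own deposited list, in which every peak carries a whole-number score of unstated unit, with a lowest score of 20 in every list. Depth is unknown, so no counting interval was computed, and scores served only as percentiles within a list.

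Gene positions and promoters came from RefSeq tables of GRCm38.p6. Listed starts and strands were matched for 195 clustered, 136 isolated and 17492 coding genes, and the rest have no listed start here. Peaks were counted when they overlapped a window by 1 base. Genes of 1 group only had a peak in all libraries of that group and in no library of the group it was set against. An exact permutation test per gene was adjusted by Benjamini-Hochberg over 21887 genes (threshold 0.05). Named genes were the 10 of highest mean percentile among members in all 8 libraries, the one-group sets, members of the 3 largest clusters and those beside the 100 kb limit. Genes of known role, genes with at least 3 more libraries of one preparation and chromosome 4 members were added after their values were seen. The members and lists were chosen with earlier results of these data known. Alternatives changed the window, peak threshold, cluster distance and libraries. The planned search of protein sequences was not run. At most 193 intervals were identical between 2 lists, so all 8 libraries were kept as separate. On simulated data, 2000 overlap queries gave 0 mismatches. Python 3.11.15, numpy 2.4.6, pandas 2.3.3, scipy 1.17.1 and matplotlib 3.10.9 were used.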

Additional observations from a re-analysis of the deposited data

How the results depend on the processing

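Of 241 values recomputed under alternatives, 181 stayed within the spread between libraries or within 1.5 times the count, 59 moved beyond it and 1 reversed. The reversed value was the difference between clustered and isolated genes at the far end of the genes alone, -3.69 points. There, over 195 clustered genes, the share was 6.6%, with 5 genes marked in all 8 libraries and 173 in none. In total cells only, WT microglia only, 5XFAD total cells only and WT total cells only there were 0. Far ends hold few peaks. The cause of the other changes was not tested. A 1 kb window gave a share of 66.6% with 1 gene in total cells only and 1 in WT total cells only, and a 5 kb window gave 1 gene in microglia only. The whole gene body gave a share of 78.9%, a difference of 5.7 points, 23 unmarked genes and 1 gene in microglia only. Lists cut to 22300 peaks gave 1 gene in microglia only, 5 in total cells only, 5 in 5XFAD microglia only and 6 in WT microglia only. The higher-scoring 50% of peaks gave a share of 60.5%, a difference of 13.9 points, 78 genes in all 8 libraries, 10 in 5XFAD microglia only and 4 in WT total cells only. A score of at least 50 gave a share of 65.8%, a difference of 12 points, 1 gene in microglia only, 1 in total cells only, 8 in 5XFAD microglia only, 1 in WT microglia only and 4 in WT total cells only. Windows shared with no other gene were left for 149 clustered genes, so their counts do not compare directly with those over 226. Of these genes, 76 were marked in all 8 libraries. There was 1 in WT microglia only, 4 in 5XFAD total cells only and 1 in WT total cells only.

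A search at the start alone, peak midpoints and cluster limits of 50 and 200 kb moved none of these values. The next 4 alternatives were chosen after seeing the data. Both gene ends, at only the genes with a listed start, moved none of these values. Any listed start, over 195 clustered genes, gave a share of 77.1%, a difference of 12.6 points and 22 unmarked genes. It also gave 1 gene in microglia only and 6 in 5XFAD microglia only. Promoters sharing no 40-base run, over 154 clustered genes, gave a share of 77.8%, 17 unmarked genes and 5 in 5XFAD total cells only. Without the chromosome 4 clusters, but with every isolated gene kept, the difference was 13.3 points. As planned, leaving out each library in turn gave a share of 71.2% to 73.2%, a difference of 8.57 to 9.5 points, 118 to 126 genes in all 8 libraries and 37 to 39 in none. In the same way, genes in microglia only numbered 0 to 3, total cells only 2 to 5, 5XFAD microglia only 3 to 21, WT microglia only 2 to 5, 5XFAD total cells only 10 to 16 and WT total cells only 2 to 10. A paired exact permutation test, with the replicate block of genotype and number, set 4 microglia libraries against 4 total cell libraries over 16 arrangements. Its smallest p is 0.125, so 0 clustered genes had an unadjusted p below 0.05, against 2 without the block. Between genotypes the smallest paired p is 0.5. The labels do not say whether numbers mark a shared animal or day. The difference between replicates 1 and 2 correlated across genes at -0.0515 to 0.117 between groups. Such a correlation cannot show whether same-numbered libraries share an animal or day. For single genes, a 1 kb window left Zfp109, Zfp688 and Zfp235 with 0 libraries. Unknown depth limits every absence of a peak.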
